A study of Mus musculus with 9 samples.

Results

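The 36 genes described here mark the cells of brain capillaries and the barrier they form, and were taken by symbol from a table of 57010 mouse genes. All 36 were found, each in 1 row, and all 36 were among the 17967 genes that passed the filter on low counts. They were sorted by role into 6 junction and adhesion genes, 5 receptors, 8 other surface or secreted proteins and 3 transcription factors of endothelial cells, 7 transporters of the barrier and 7 pericyte genes. RNA came from hippocampal tissue of C57BL/6J mice in 3 groups with 3 libraries each. Sham mice had the spinal nerve exposed without a ligature and then received solvent. In SNL mice the nerve was tied off, which models neuropathic pain, and solvent followed. CBD mice had the ligation and then 5 mg/kg of cannabidiol, a non-intoxicating cannabinoid, by intraperitoneal injection for 15 days. No genotype differed between the groups. The labels state neither ages nor whether each library stands for 1 animal or a pool, so the p-values below cover the spread between these libraries, part of which may be technical.

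Brain capillaries are lined by endothelial cells that are sealed to each other by tight junctions and pass few solutes between or through the cells. Nutrients cross by carriers in the endothelial membrane, while efflux pumps return many drugs and lipids to the blood. Pericytes sit on the capillary wall in the same basement membrane, and signals between both cell types maintain the barrier. In whole tissue, more cells of a type and more RNA per cell cannot be told apart, and some of these genes are also made by other brain cells, among them Slc2a1, Slc7a5, Tjp1 and Slco1c1.

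A library held between 16972620 and 20470546 counts, and the counts of the 36 genes ran from 30 for Higd1b to 2999 for Rgs5. Levels are in CPM, counts scaled to a common library size after trimmed mean of M-values (TMM) adjustment. Libraries were not alike in the tissue they held. The hypothalamic transcript Pmch reached 200.4 CPM in SNL 1, 146 in CBD 1 and 43.9 in SNL 2, where the other 6 libraries held 0.797 or less. The summed level of 12 thalamus and habenula markers was 437 to 599.9 CPM in sham, 707 to 1712 in SNL and 651 to 902 in CBD, and that of 12 hippocampal neuron markers was 4210.4 to 7855, 2717 to 4652 and 2535 to 5528. The hippocampal markers were thus present in every library.

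Per kilobase of the longest annotated transcript, the levels of the 36 genes in sham spanned from 0.826 CPM per kb for Anpep to 43.5 for Ly6c1. Vtn (41.5), Slc2a1 (40.5) and Ly6a (39.0) followed Ly6c1 on the same scale. Cldn5 stood at 20.3 CPM per kb, Flt1 at 10.1 and Pdgfrb at 5.33. Endothelial and pericyte genes were therefore both measured, and the transcription factors Erg (2.14) and Sox17 (1.98) were near the low end.

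**Figure D1:**
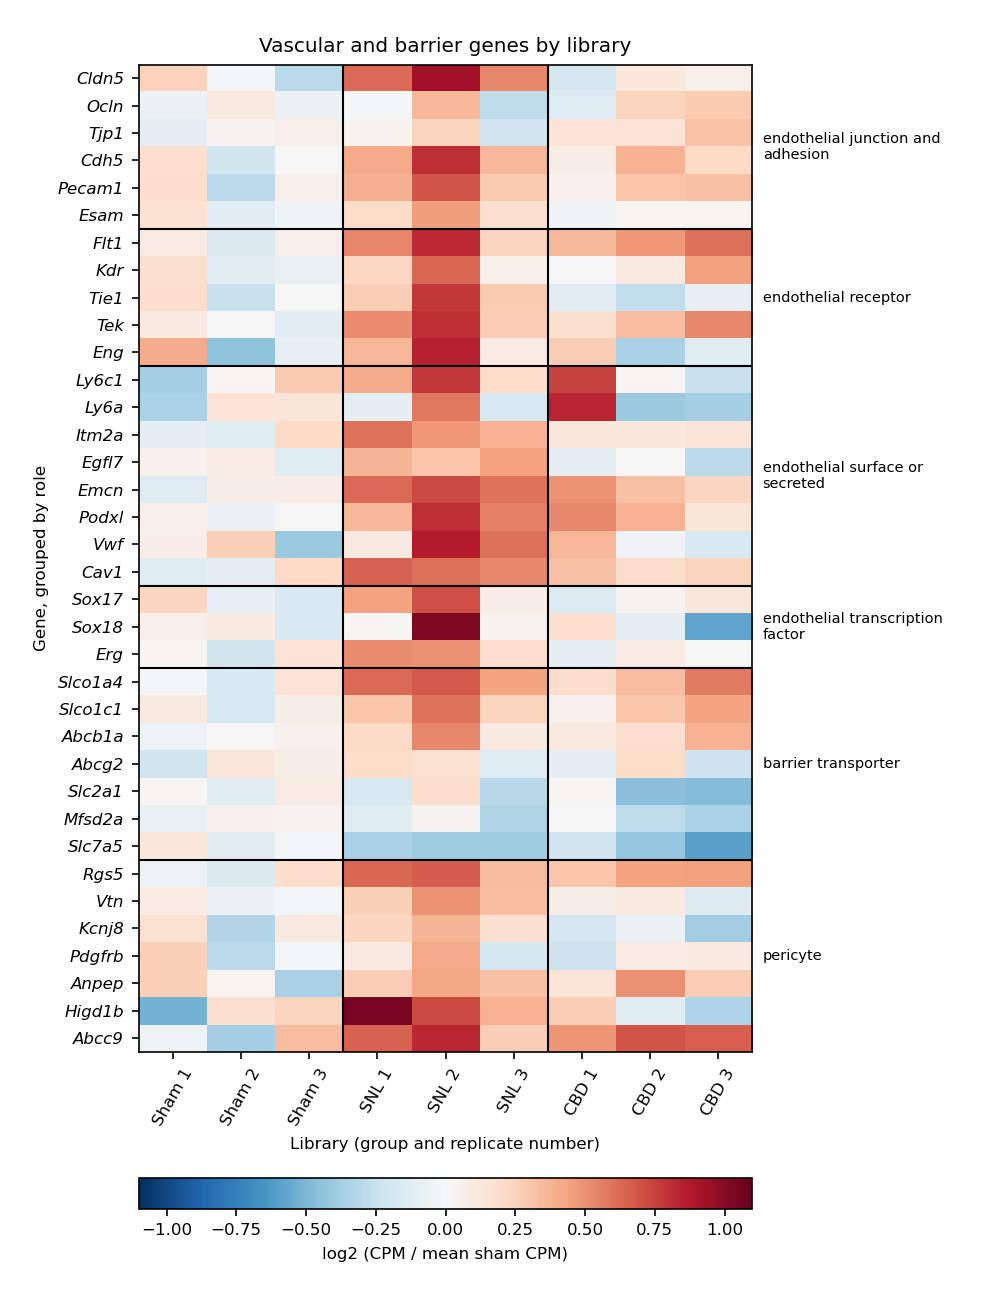
Level of each of the 36 genes (rows, grouped by role) in each of the 9 libraries (columns), as log2 of CPM over the mean sham CPM, with red above and blue below the sham mean. SNL 2 is the reddest column, with the highest value of 25 genes, while Slc7a5 is blue in every SNL and CBD column.

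The promoter windows of 3 members are shown because these genes stand for the endothelial junction (Cldn5), an endothelial receptor (Flt1) and the pericytes (Rgs5), and because all 3 had a higher fitted level in SNL than in sham. Each is the 250 bases before the annotated start, 5′ to 3′ on the gene's strand, from RefSeq on build GRCm38.p6, an older build than the GRCm39 of the counts. Cldn5 lies at chr16:18776597-18776846 (plus strand), Flt1 at chr5:147726012-147726261 (minus strand) and Rgs5 at chr1:169655251-169655500 (plus strand). Capitals mark AGGAAG or its reverse complement CTTCCT, a core recognised by ETS factors, the family of the member Erg.
Cldn5: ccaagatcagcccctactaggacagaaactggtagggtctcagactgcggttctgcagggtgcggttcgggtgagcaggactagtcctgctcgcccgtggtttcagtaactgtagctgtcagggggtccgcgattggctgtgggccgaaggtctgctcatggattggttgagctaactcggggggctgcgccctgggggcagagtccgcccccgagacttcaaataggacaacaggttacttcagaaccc
Flt1: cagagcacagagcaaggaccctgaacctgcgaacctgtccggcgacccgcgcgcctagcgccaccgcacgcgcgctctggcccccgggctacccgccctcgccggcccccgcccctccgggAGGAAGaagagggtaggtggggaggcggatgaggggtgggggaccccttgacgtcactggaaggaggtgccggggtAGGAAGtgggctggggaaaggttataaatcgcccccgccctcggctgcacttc
Rgs5: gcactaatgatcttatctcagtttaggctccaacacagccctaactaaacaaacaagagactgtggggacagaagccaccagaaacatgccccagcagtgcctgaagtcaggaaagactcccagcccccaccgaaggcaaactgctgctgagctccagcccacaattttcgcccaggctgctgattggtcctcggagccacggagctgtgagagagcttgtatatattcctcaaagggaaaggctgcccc
The Flt1 window held the ETS core at 2 places, 129 and 53 bases before the start, and the windows of Cldn5 and Rgs5 held no match. Of the 36 genes 25 had a promoter in the RefSeq table, in 34 windows since some have several starts. AGGAAG, searched on both strands, was in 15 of the 34 windows (44.1%), in 12 genes, and in 29.5% of all 32851 windows of the same length. The SOX core ACAAT, for the family of Sox17 and Sox18, was in 20.6% of the member windows and 27.7% of all. The GC box GGGCGG was in 44.1% and 32.7%, the TATA box TATAAA in 14.7% and 12.4%, and the E-box CACGTG in 0 and 6.02%. Motifs were counted separately, whether or not they overlapped. The member windows had a median GC content of 59%, against 52.4% over all windows.

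The first comparison, SNL against sham, sets ligated mice beside mice without a ligature. Of the 36 genes, 33 had a higher fitted level in SNL and 3 a lower one, where 51.6% and 48.4% of all genes did, with a median log2 fold change of 0.44, where the median over all 17967 genes was 0.01. Higher genes included Cldn5 of the tight junction (1.63-fold), the caveolin gene Cav1 (1.51-fold), the bile acid and hormone transporter gene Slco1a4 (1.5-fold) and the pericyte gene Rgs5 (1.47-fold). The amino acid carrier gene Slc7a5 was lower (0.77-fold). No gene of the 36 passed an adjusted p under 0.05 by edgeR's quasi-likelihood test, where 0 of all genes (0%) were called, and the smallest adjusted p of a member was 0.21. At an unadjusted p under 0.05, 21 of the 36 were higher, where 5.83% of all genes tested were, and 1 was lower, where 7.96% were. Every SNL library lay above every sham library for 21 members, against 7.94% of all genes, and below for 1, against 9.81%.

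The count rested in part on SNL 2, which held the highest value of 25 of the 36 genes. Without SNL 2, 12 members were higher at an unadjusted p under 0.05 (5.18% of all genes) and the median log2 fold change was 0.30. Without SNL 1, SNL 2 and CBD 1, the libraries with the most Pmch, SNL 3 was the only SNL library, and the member median was 0.26. The lone library is assumed there to vary like those of the other groups. The DESeq2 Wald test called 8 members higher (22.2%, where 0.69% of the genes with an adjusted p were called higher), namely Cldn5, Flt1, Itm2a, Emcn, Podxl, Cav1, Slco1a4 and Rgs5. Without the filter on low counts edgeR called 4 members higher (11.1%, against 0.224% of all genes), Cldn5, Podxl, Slco1a4 and Rgs5. Limma voom with sample weights called 0 members higher (0%, where 0% of all genes were called higher).

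Among junction and adhesion genes, 6 of 6 had a higher fitted level in SNL and 4 had an unadjusted p under 0.05. Cldn5 encodes claudin-5, the main claudin of brain capillaries. It stood at 34.2, 28.5 and 23.4 CPM in the sham libraries, at 44.2, 54.5 and 41.5 in SNL and at 25.3, 31.1 and 29.8 in CBD. Every SNL library lay above all sham and CBD libraries, which overlapped (SNL against sham log2 fold change 0.70, SE 0.16, edgeR adjusted p 0.21). Cdh5, the cadherin of endothelial adherens junctions, stood at 18.5, 14.2 and 16.3 CPM in sham, 21.8, 28.7 and 21.0 in SNL and 17.1, 21.2 and 19.0 in CBD. The adhesion gene Pecam1 stood at 26.3, 18.8 and 23.9 CPM in sham, 30.2, 37.2 and 28.0 in SNL and 23.8, 28.5 and 28.8 in CBD. For both, SNL lay above sham without overlap and CBD overlapped SNL. Esam, an adhesion protein of the same junctions, had a log2 fold change of 0.28 (SE 0.13). The other tight junction genes among the 36, Ocln and Tjp1, differed little. Ocln (occludin) stood at 13.1 CPM ± 0.901 (SD, n = 3) in sham and 13.5 ± 3.12 in SNL, and the scaffold gene Tjp1 at 102 ± 6.00 and 104 ± 16.5, with overlapping libraries for both.

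The receptors gave 5 of 5 higher fitted levels in SNL, 3 of them at an unadjusted p under 0.05. Flt1 and Kdr encode receptors for vascular endothelial growth factors. Flt1 stood at 74.1, 62.2 and 72.3 CPM in sham, 101, 123 and 82.6 in SNL and 88.8, 97.0 and 106 in CBD. Both ligated groups lay above sham without overlap (SNL against sham log2 fold change 0.56, SE 0.15, edgeR adjusted p 0.226). Kdr stood at 18.1, 14.7 and 15.1 CPM in sham, 18.7, 24.8 and 16.6 in SNL and 16.0, 17.2 and 21.9 in CBD, and all groups overlapped. Tek encodes the angiopoietin receptor, and Tie1 its relative that binds no angiopoietin by itself. Tek stood at 18.0, 16.7 and 15.4 CPM in sham, 23.9, 29.3 and 20.3 in SNL and 18.9, 21.1 and 24.1 in CBD. Tie1 stood at 19.3, 14.3 and 17 CPM in sham, 20.4, 28.9 and 20.6 in SNL and 15.6, 14 and 15.9 in CBD. SNL lay above sham for both, but CBD overlapped SNL for Tek and lay below all SNL libraries for Tie1. Eng, which encodes endoglin, a co-receptor of the TGF-beta family, varied within groups, at 24.0 CPM ± 7.18 in sham and 33.2 ± 9.04 in SNL.

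**Figure D2:**
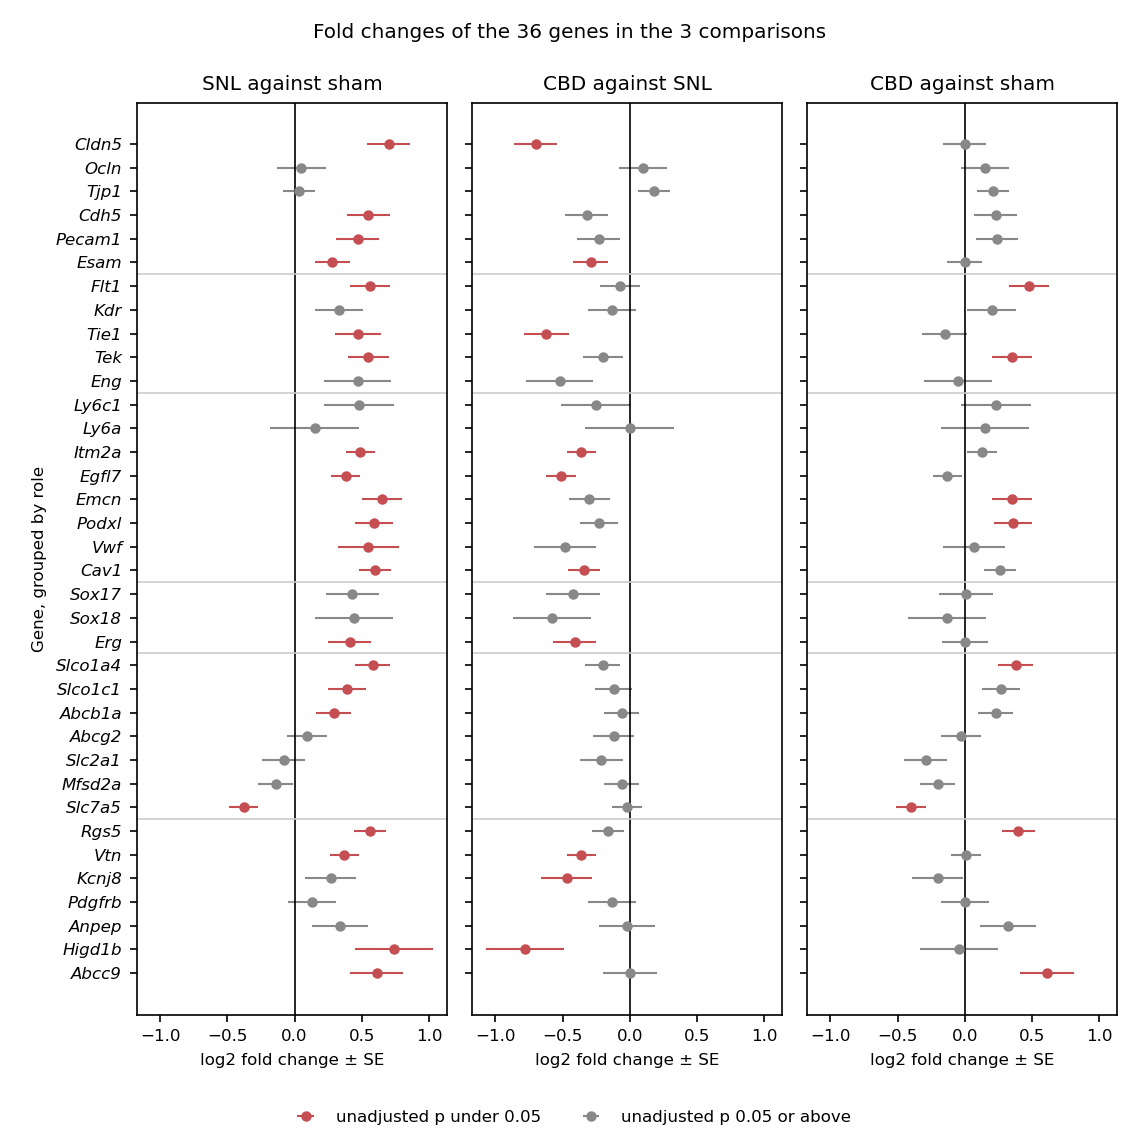
Log2 fold changes of the 36 genes (points, with bars of 1 SE) in the 3 comparisons, from the edgeR fit over all 9 libraries, with red for an unadjusted p under 0.05. In SNL against sham 21 red points lie right of 0 and 1, Slc7a5, left, in CBD against SNL 10 lie left, and in CBD against sham 7 lie right and 1 left.

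Of the 8 other surface or secreted proteins all 8 had a higher fitted level in SNL and 6 an unadjusted p under 0.05. Cav1 encodes caveolin-1 of the endothelial caveolae, and it stood at 12.5, 12.7 and 15.9 CPM in sham, 21.5, 20.8 and 19.8 in SNL and 17.1, 15.7 and 16.2 in CBD. SNL lay above both other groups without overlap, and the log2 fold change against sham was 0.60 (SE 0.12, edgeR adjusted p 0.21). Podxl, a sialomucin of the luminal surface, stood at 47.4, 43.7 and 45.7 CPM in sham, 58.8, 80.1 and 67.0 in SNL and 65.9, 59.5 and 49.9 in CBD. Both ligated groups lay above sham. The transmembrane gene Itm2a stood at 51.9, 51.0 and 65.1 CPM in sham, 84.5, 78.0 and 73.1 in SNL and 61.2, 60.7 and 61.8 in CBD. Egfl7, a secreted matrix protein of endothelium, stood at 23.6, 24.2 and 20.9 CPM in sham, 29.6, 28.3 and 31.1 in SNL and 21.2, 22.9 and 18.6 in CBD. SNL lay above sham and CBD for both, and sham and CBD overlapped. The log2 fold change of Emcn, another sialomucin, was 0.65 (SE 0.15), and that of Vwf, the clotting factor carrier, 0.55 (SE 0.23). Ly6c1 and Ly6a, surface proteins of a family with near-identical copies, reached 0.48 (SE 0.26) and 0.15 (SE 0.33).

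The transcription factors had higher means in SNL too, but with more overlap. Sox17 stood at 7.55, 6.02 and 5.71 CPM in sham, 8.70, 10.5 and 6.75 in SNL and 5.79, 6.55 and 7.01 in CBD, and all groups overlapped. Erg was the single factor of the 3 with an unadjusted p under 0.05 (log2 fold change 0.41, SE 0.16). Sox18 stood at 14.3 CPM in SNL 2 and at 7.12 and 7.17 in the other SNL libraries, and its log2 fold change of 0.44 was 0.03 without SNL 2.

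The barrier transporters did not share one direction, with 4 of 7 higher in SNL and 3 lower (median log2 fold change 0.09). Slco1a4 stood at 49.8, 44.6 and 56.1 CPM in sham, 77.5, 80.1 and 67.9 in SNL and 57.4, 63.7 and 74.7 in CBD. Both ligated groups lay above sham (SNL against sham 0.58, SE 0.13, edgeR adjusted p 0.21). Abcb1a encodes an efflux pump known as P-glycoprotein, and it stood at 41.6, 43.3 and 44.7 CPM in sham, 50.1, 62.2 and 46.3 in SNL and 46.6, 49.2 and 56.4 in CBD. Its sham libraries lay below all others, with a log2 fold change of 0.29 (SE 0.13). The thyroid hormone transporter gene Slco1c1 had 0.39 (SE 0.14), and the efflux pump gene Abcg2 0.09 (SE 0.15). The nutrient carriers were those without a higher level. Slc2a1, for the main glucose carrier of the barrier, stood at 134, 122 and 140 CPM in sham, 117, 151 and 107 in SNL and 133, 96 and 95 in CBD. Mfsd2a, a carrier of lysophospholipids with docosahexaenoic acid, stood at 18.1, 19.6 and 19.4 CPM in sham, 17.3, 19.4 and 15.1 in SNL and 18.9, 15.7 and 14.9 in CBD. Their groups overlapped. Slc7a5, the carrier of large neutral amino acids, stood at 85.8, 72.8 and 78.0 CPM in sham, 61.7, 60.3 and 60.2 in SNL and 68.3, 58.7 and 52.3 in CBD, so both ligated groups lay below every sham library (SNL against sham -0.38, SE 0.11, edgeR adjusted p 0.243).

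All 7 pericyte genes had a higher fitted level in SNL, 4 of them at an unadjusted p under 0.05. Rgs5, a regulator of G protein signalling, stood at 95.9, 89.1 and 114 CPM in sham, 154, 158 and 127 in SNL and 123, 135 and 136 in CBD. Both ligated groups lay above sham (SNL against sham 0.56, SE 0.12, edgeR adjusted p 0.21). Vtn (vitronectin), secreted by pericytes, stood at 76.5, 69.3 and 71.2 CPM in sham, 86.6, 102 and 91.5 in SNL and 75.8, 77.5 and 65.2 in CBD, with SNL above both other groups. Abcc9, a subunit of the ATP-sensitive potassium channel, stood at 9.08, 7.28 and 11.9 CPM in sham, 14.8, 16.8 and 11.4 in SNL and 13.2, 15.2 and 14.9 in CBD. SNL and sham overlapped for Abcc9, and CBD lay above sham. Pdgfrb, the receptor through which endothelium recruits pericytes, stood at 34.7, 23.6 and 28.5 CPM in sham, 31.0, 38.5 and 25.3 in SNL and 24.7, 30.7 and 31.2 in CBD, with overlap throughout (SNL against sham 0.13, SE 0.18). Higd1b had the largest log2 fold change of the 36 (0.74, SE 0.29), from counts of 30 to 78. The channel gene Kcnj8 had 0.27 (SE 0.19) and the peptidase gene Anpep 0.34 (SE 0.21).

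**Figure D3:**
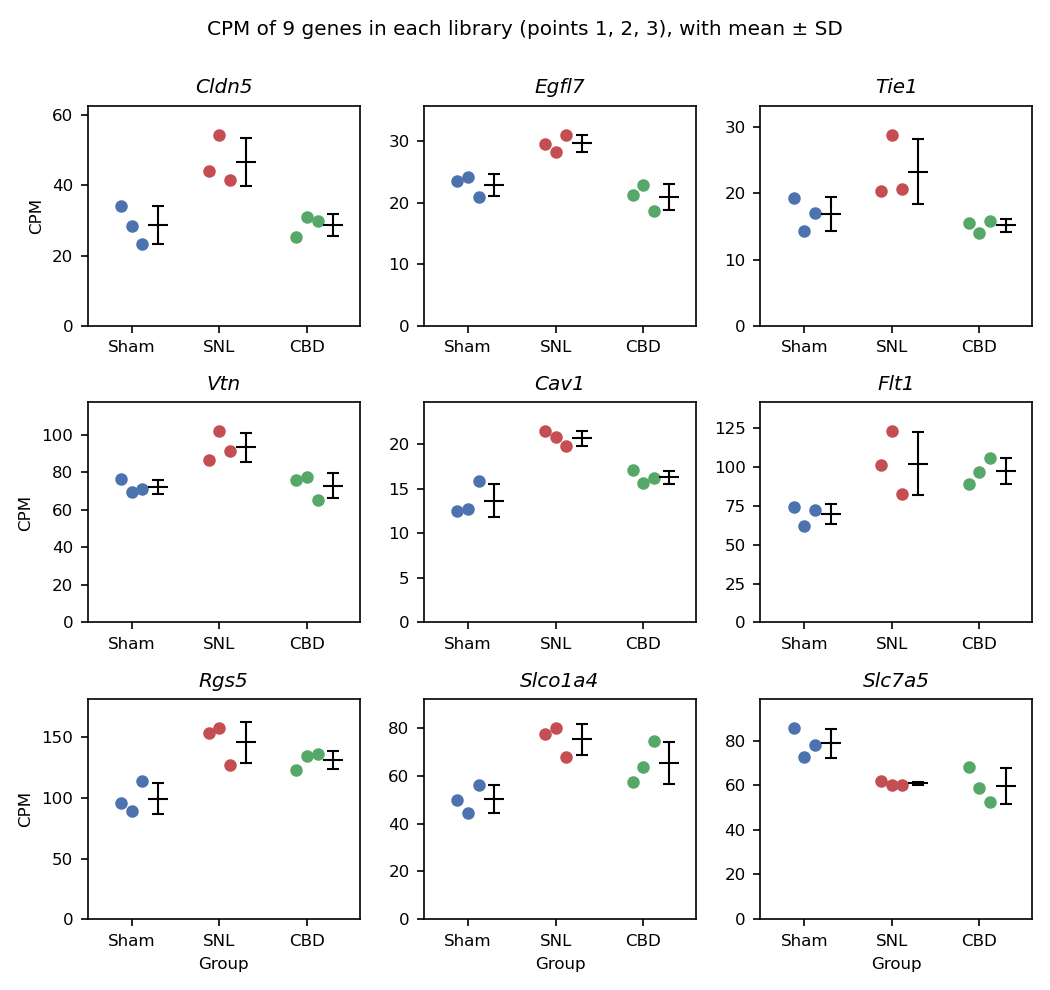
CPM of 9 genes in each library (points in the order 1, 2, 3 within a group), with black bars for the mean ± SD of each group and axes from 0. Cldn5, Egfl7, Tie1, Vtn and Cav1 are highest in SNL with CBD below it, whereas Flt1, Rgs5 and Slco1a4 stay above sham in CBD and Slc7a5 lies below sham in both ligated groups.

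Other vascular genes outside the 36 were counted in lists. Of 20 other endothelial markers 16 were higher in SNL, 7 of them at an unadjusted p under 0.05 (5.83% of all genes), with a median of 0.29. They included the adhesion receptor gene Adgrl4 (0.65, SE 0.15), the C-type lectin family genes Cd93 (0.73, SE 0.18) and Clec14a (0.92, SE 0.27). Of 10 other pericyte markers 9 were higher and 2 passed that threshold, Art3 and Ndufa4l2, with a median of 0.40. All 9 arterial smooth muscle genes were higher and 3 passed, with a median of 0.45, among them smooth muscle actin, Acta2, at 16.3 CPM in SNL and 10.6 in sham. Of 11 basement membrane genes 5 were higher and 0 passed upward, with a median of -0.05, and Lamb1 was lower (-0.56, SE 0.20). Of 10 tested genes of other junction proteins, out of 11 listed, 8 were higher and 2 passed, Lsr and Cldn12. Of 20 genes of other barrier transport 13 were higher and 2 passed, the glutamine carrier gene Slc38a5 (1.28, SE 0.34) and the thiamine carrier gene Slc19a3 (0.64, SE 0.20). The value of Slc38a5 rested in part on SNL 3, with 6.54, 7.73 and 15.7 CPM in SNL and 4.49, 4.9 and 2.96 in sham.

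Of 21 tested genes of vascular growth factors and Notch, out of 22 listed, 11 were higher and 10 lower in SNL, with a median of 0.06. The co-receptors of growth factors and semaphorins Nrp1 (-0.94, SE 0.21) and Nrp2 (-0.57, SE 0.16), which neurons also make, had the smallest p, and both were lower. Of 15 genes of Wnt and Norrin signalling, which induces barrier properties, 10 were higher, with a median of 0.12. Only 1, Tspan12, had an unadjusted p under 0.05, where 5.83% of all genes were higher at that threshold. Of 10 astrocyte endfoot genes 7 were higher, with a median of 0.02.

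The summed level of the 36 genes was 1164 to 1273 CPM in sham, 1365 to 1764 in SNL and 1319 to 1384 in CBD. Markers of other cells differed along with it. All 12 thalamus and habenula markers were higher in SNL, 9 at an unadjusted p under 0.05, and SNL 2 had the highest sum, 1712 CPM. All 10 myelin genes were higher, with sums of 9001 to 12170.1 CPM in sham and 10836 to 15392 in SNL. Of 12 hippocampal neuron markers 11 were lower. Their part in the vascular result was not tested. Fibroblast and meningeal genes (5 of 12 higher, sums of 228 to 301 CPM in sham and 184 to 332 in SNL), perivascular macrophage genes (6 of 8 higher, 20.1 to 27.1 and 21.8 to 32.0) and genes of blood cells (3 of 7 tested higher, 144 to 979.7 and 360.2 to 607) overlapped between sham and SNL. Choroid plexus sums also overlapped, at 152 to 1358 and 278 to 2292 CPM. The defining markers of these lists, Dcn, Mrc1, Hbb-bs and Ttr, were above 0 in all libraries.

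**Figure D4:**
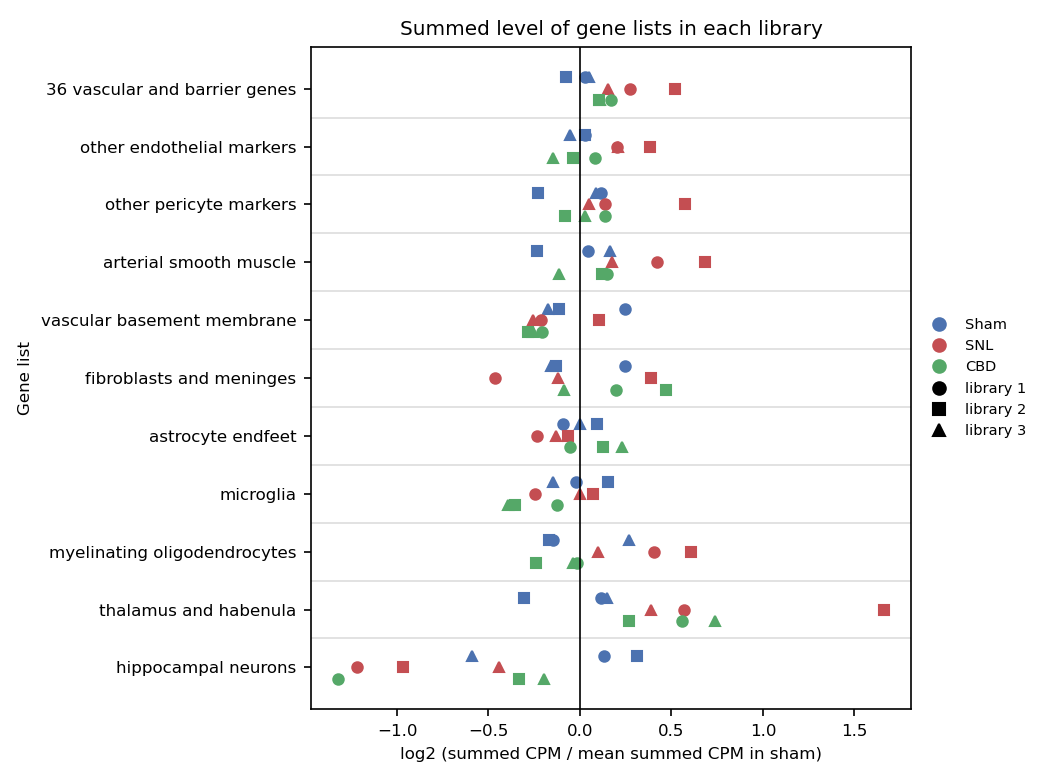
Summed CPM of 11 gene lists in each library, as log2 of the sum over the mean sum in sham, with colour for the group and marker shape for the library number. The SNL libraries lie right of every sham library for the 36 genes, other endothelial markers, smooth muscle and thalamus and habenula, SNL 2 is furthest right in these, and hippocampal neuron sums lie left of the sham mean in all SNL and CBD libraries.

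The second comparison, CBD against SNL, sets treated beside untreated mice among those with a ligature. It shares the SNL libraries with the first, so values that were high in SNL enter both. Of the 36 genes 32 had a lower fitted level in CBD and 4 a higher one, where 50.1% and 49.9% of all genes did, with a median log2 fold change of -0.23, where the median over all genes was 0. The lower ones included Cldn5 (0.62-fold), Tie1 (0.65-fold) and Egfl7 (0.70-fold), while the nutrient carrier Slc7a5 (0.98-fold) had nearly equal means, as had the pericyte gene Abcc9 (14.4 CPM in both groups). By edgeR 0 members passed an adjusted p under 0.05, where 0% of all genes did, and the smallest adjusted p was 0.306. At an unadjusted p under 0.05 10 members were lower, where 7.20% of all genes were, and 0 were higher, where 6.50% were. Every CBD library lay below every SNL library for 11 members, against 10.1% of all genes, and above for 0, against 9.18%. The DESeq2 Wald test called 2 members lower, Cldn5 and Egfl7 (5.56%, against 0.557% of the genes with an adjusted p). Limma voom with sample weights called 6 lower (16.7%, against 3.82% of all genes), Cldn5, Tie1, Itm2a, Egfl7, Cav1 and Higd1b.

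The genes with the smallest p came from several roles. The log2 fold change was -0.70 (SE 0.16) for Cldn5, -0.51 (SE 0.11) for Egfl7, -0.62 (SE 0.17) for Tie1, -0.36 (SE 0.11) for Vtn, -0.36 (SE 0.11) for Itm2a and -0.34 (SE 0.12) for Cav1. For each of these 6 the CBD libraries lay below the SNL libraries without overlap. Higd1b (-0.78, SE 0.29), Erg (-0.41, SE 0.16), Kcnj8 (-0.47, SE 0.19) and Esam (-0.29, SE 0.13) were the other members with an unadjusted p under 0.05. All 7 transporters were lower, from -0.21 for Slc2a1 to -0.02 for Slc7a5, and 0 of them had an unadjusted p under 0.05. Flt1 (-0.07, SE 0.15), Rgs5 (-0.16, SE 0.12) and Tek (-0.20, SE 0.15) also differed by less than 2 SE.

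Fold changes in this comparison went with the base composition of the transcripts. Across all genes with a value the Spearman rho of the fold change was -0.44 with GC content and 0.36 with length, and across the 36 members it was -0.51 and 0.47. Genes are not independent replicates and share their libraries, so these are descriptions. With offsets that removed each library's trend on both, the fold change was -0.36 for Cldn5, -0.27 for Egfl7, -0.14 for Vtn and -0.11 for Esam, and it was -0.48 for Tie1, -0.39 for Itm2a and -0.42 for Cav1. Of the 10 members below an unadjusted p of 0.05 as reported, Vtn, Esam, Higd1b (-0.51) and Kcnj8 (-0.35) no longer were with the offsets. Slco1a4 reached -0.37, Rgs5 -0.31 and Emcn -0.43. With the offsets 13 members were lower at an unadjusted p under 0.05, where 4.07% of all genes were, and the median was -0.26.

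**Figure D5:**
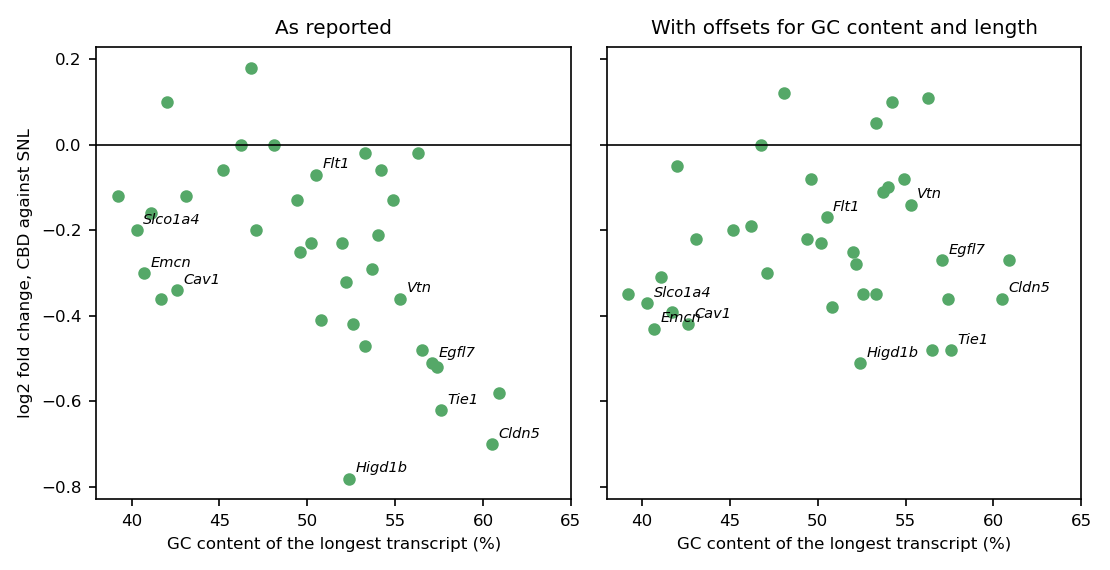
Log2 fold change in CBD against SNL for the 36 genes against the GC content of the longest transcript in percent, as reported (left) and with offsets for GC content and length (right). As reported, Cldn5 and Tie1 at high GC lie lowest together with Higd1b, and with the offsets Cldn5 is at -0.36 and Slco1a4, at low GC, is at -0.37.

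The libraries that were left out also mattered here. Without SNL 2 the member median was -0.11, with 7 members lower and 1 higher at an unadjusted p under 0.05, where 6.10% and 5.62% of all genes were. Without SNL 1, SNL 2 and CBD 1 it was -0.13, with 16 members higher and 20 lower, and 2 passed that threshold in each direction, where 4.36% of all genes were higher and 6.59% lower. In that fit Cldn5 was at -0.45, Egfl7 at -0.58 and Vtn at -0.36, while Flt1 was at 0.30. In the fit over all 9 libraries all 10 myelin genes and 9 of 10 microglial genes were lower in CBD than in SNL. The part of cell content was not tested. The myelin sums ran from 8564 to 10004 CPM in CBD and the microglial sums from 342 to 412, against 378 to 472 in SNL.

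Among the other vascular lists, 17 of 20 other endothelial markers were lower in CBD, 6 of them at an unadjusted p under 0.05 (7.20% of all genes lower, 6.50% higher), with a median of -0.23. The smallest p-values were those of Bsg, a glycoprotein that chaperones lactate carriers (-0.46, SE 0.12), and the endothelial nitric oxide synthase gene Nos3 (-0.63, SE 0.19). All 9 smooth muscle genes were lower, with Tagln (-0.56, SE 0.20) and Acta2 (-0.49, SE 0.20) below that threshold, and 9 of 10 other pericyte markers were lower. Of 21 genes of vascular growth factors and Notch 9 were higher and 12 lower. Bmpr2, a receptor of bone morphogenetic proteins, was higher (0.50, SE 0.14) and the ligand gene Vegfb lower (-0.39, SE 0.11). Nrp2 (0.49, SE 0.16) and Nrp1 (0.53, SE 0.21), named above as lower in SNL than in sham, were higher in CBD than in SNL.

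The third comparison, CBD against sham, sets treated ligated mice beside mice that were never ligated. It shares the sham libraries with the first comparison and the CBD libraries with the second. Of the 36 genes 23 had a higher fitted level in CBD and 13 a lower one, where 50.1% and 49.9% of all genes did, with a median log2 fold change of 0.14, where the median over all genes was 0. By edgeR 0 members passed an adjusted p under 0.05 (0% of all genes), and their lowest adjusted p was 0.213. With no adjustment, 7 members were higher and 1 lower at p under 0.05, where 7.41% and 8.87% of all genes were. The 7 were Flt1 (0.48, SE 0.15), Rgs5 (0.40, SE 0.12), Abcc9 (0.61, SE 0.20), Slco1a4 (0.38, SE 0.13), Podxl (0.36, SE 0.14), Tek (0.35, SE 0.15) and Emcn (0.35, SE 0.15), and the lower one was Slc7a5 (-0.40, SE 0.11). For each of these 8 the CBD and sham libraries did not overlap, and the same held for Abcb1a and Tjp1, which were higher in CBD, so that 9 members lay wholly above sham (10.6% of all genes) and 1 below (11.1%). Limma voom with sample weights called Flt1, Rgs5 and Abcc9 higher (8.33%, against 1.92% of all genes) and Slc7a5 lower (2.78%, against 3.93%). Without Sham 2, the library with the lowest value of 14 members, 2 members were higher at an unadjusted p under 0.05 (4.70% of all genes), and 4 without CBD 2 (5.16%), while 3 were lower without CBD 1 (10.7%). The rho of the fold change with GC content was -0.66 across the members and -0.56 across all genes. With offsets for GC content and length 5 members were higher and 0 lower at that threshold, Slc7a5 being at -0.19, Rgs5 at 0.19, Slco1a4 at 0.14 and Flt1 at 0.51.

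Several of the genes that were higher in SNL than in sham had nearly equal means in CBD and sham as reported. With offsets for GC content and length some of these differences, but not all, moved away from 0. Cldn5 stood at 28.7 CPM ± 5.44 in sham and 28.7 ± 3.02 in CBD, with a log2 fold change of 0 (SE 0.16). Vtn stood at 72.3 CPM ± 3.73 and 72.8 ± 6.69 (0.01, SE 0.11), and Esam at 14.7 ± 1.52 and 14.7 ± 0.35 (0, SE 0.13). Those differences were smaller than the spread between replicates, which does not show that the groups are alike. With the offsets the CBD against sham log2 fold change was 0.35 for Cldn5 (unadjusted edgeR p 0.054), 0.19 for Vtn (0.0555) and 0.14 for Esam (0.308). Erg, at 6.97 CPM in sham and 6.96 in CBD, stayed near 0 with them (0.06, unadjusted edgeR p 0.693). Over the 36 genes the SNL mean was the highest of the 3 group means for 29 (80.6%, against 33.1% of all genes). The CBD mean lay between those of sham and SNL for 19 of these (52.8% of the 36, against 16.2%) and at or below sham for 10 (27.8%, against 16.8%). The exceptions were Ocln, Tjp1, Ly6a and Abcc9, with the highest mean in CBD, and Slc2a1, Mfsd2a and Slc7a5, with the highest mean in sham.

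In the other lists for CBD against sham, the basement membrane collagen genes Col4a2 (-0.48, SE 0.12) and Col4a1 (-0.44, SE 0.17) were lower in CBD at an unadjusted p under 0.05. Tspan12, which helps the Norrin receptor to signal, was higher in CBD (0.52, SE 0.15), as it was in SNL (0.43, SE 0.15). The vascular adhesion gene Vcam1 was higher by 0.48 (SE 0.14) in each ligated group against the same sham libraries. Cav2, the partner of caveolin-1, was higher in CBD (0.47, SE 0.12), and the flow-responsive factor gene Klf2 was lower (-0.92, SE 0.31).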

How the data were processed

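The authors deposited expected counts per gene and library, made with RSEM on build GRCm39 per the submitters' processing notes, with the RSEM version, aligner and annotation not given in the sources used here. Libraries came from a SMARTER mRNA-seq kit, per the labels' protocols. Expected counts share reads among similar transcripts, and 9 of the 36 genes had counts that were not whole, so Vwf, Abcb1a, Ly6c1, Ly6a and Abcc9 are uncertain where a related gene takes reads. Counts were rounded, filtered by filterByExpr (17967 genes) and scaled by TMM. Groups were compared by the quasi-likelihood F test of edgeR (4.0.16, R 4.3.3) with 1 factor over all 9 libraries (6 residual degrees of freedom, common biological coefficient of variation 0.192) and Benjamini-Hochberg adjustment over all genes. SE is the log2 fold change over the square root of F. No pair of libraries within a group agreed within sampling noise (chi-square per gene 6.61 for CBD 2 against CBD 3 and 18.4 to 44.9 for the other pairs).

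The members, the 19 other lists and the tests were chosen with earlier results of these data known, so no list was tested and nothing was adjusted over a list. Only the edgeR fit as reported was checked on simulated counts. Of simulated 1.5-fold changes it called 10.4% in SNL against sham, 6% in CBD against SNL and 17.9% in CBD against sham. For 2-fold changes these shares were 43.3%, 49.3% and 50.7%. The absence of calls thus does not show that changes of that size are absent. Values per library are given for the 6 members with the smallest p in each comparison and 14 anchors (Cldn5, Cdh5, Pecam1, Kdr, Flt1, Tek, Slco1a4, Abcb1a, Slc2a1, Mfsd2a, Sox17, Rgs5, Pdgfrb and Vtn), and up to 3 genes with the smallest p are named from other lists. Transcript length and GC content are those of the longest GENCODE M21 transcript, matched by gene identifier for 98.2% of tested genes and all 36 members. Alternatives were DESeq2 size factors, other filters, the DESeq2 Wald test (1.42.0), limma voom (3.58.1) with sample weights, the 6 libraries compared, a replicate block, offsets for GC content and length, and libraries left out.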

Additional observations from a re-analysis of the deposited data

How the results depend on the processing

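Over all settings, 2052 values of single members were recomputed, of which 24 newly passed an adjusted p under 0.05 and 0 changed direction with a call. Changes of sign without a call were not counted there. Of 19 settings, members kept the reported sign in 14 to 19 in SNL against sham. The range was 9 to 19 in CBD against SNL and 7 to 19 in CBD against sham. With no filter edgeR called 253 genes and 4 members in SNL against sham and 56 genes in CBD against sham. DESeq2 called 363 genes and 8 members in SNL against sham, 156 and 2 in CBD against SNL, and 380 genes in CBD against sham. Limma voom called 1 gene and 0 members in SNL against sham. It called 1132 genes and 6 members in CBD against SNL and 1051 and 4 in CBD against sham. In the last comparison 12 members were higher and 3 lower at an unadjusted p under 0.05 (12.8% and 15.4% of all genes). Without SNL 1, SNL 2 and CBD 1 the member median was 0.26 in SNL against sham and -0.13 in CBD against SNL. SNL 3 alone stood for SNL there. In that fit CBD against sham had 20 genes called and a member median of 0.1. Of the members, 7 were higher and 3 lower at an unadjusted p under 0.05, where 8.19% and 9.8% of all genes were. The cause of these shifts was not tested. Leaving out each library in turn gave 0 to 8 genes called in SNL against sham. It gave 0 to 2 in CBD against SNL and 0 to 17 in CBD against sham. At an unadjusted p under 0.05, 12 to 23 members were higher in SNL against sham (3.59% to 9.25% of all genes, median 0.30 to 0.53). In CBD against SNL 7 to 15 were lower (2.98% to 10.9%, median -0.32 to -0.11). In CBD against sham 2 to 7 were higher (3.79% to 10.3%) and 1 to 3 lower (5.48% to 10.7%). Between residuals of same-numbered libraries r ran from -0.27 to 0.19, and between those of other pairs from -0.27 to 0.31. Deviations from a mean of 3 libraries constrain each other, so these r cannot settle whether the numbers pair the samples. With the replicate block, 17 members were higher in SNL against sham at an unadjusted p under 0.05 (4.25% of all genes). At that threshold 7 were lower in CBD against SNL (5.28%) and 5 higher in CBD against sham (5.74%). With the block and the GC and length offsets together, 3 were higher in CBD against sham (2.55%). Depth limits the genes with few counts, such as Higd1b (30 to 78 per library) and Anpep (48 to 86).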

Other observations

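Genes that mark activated endothelium stood apart in 1 library, and these genes were chosen after their values were seen. Of the 12 genes on the endothelial activation list 6 were tested, and all 6 were higher in SNL than in sham, where 51.6% of all genes were. Their median log2 fold change was 0.50. At an unadjusted p under 0.05, 3 were higher, Vcam1, Icam1 and Ackr1, where 5.83% of all genes were. Of the 6 only Vcam1 had every SNL library above every sham library, against 7.94% of all genes. In SNL 3, Icam1, the leukocyte adhesion molecule, stood at 9.30 CPM, against 2.33 to 4.95 in the other 8 libraries. The selectin genes Sele and Selp, which activated endothelium uses to catch leukocytes, had 45 and 31 counts in SNL 3 and at most 7 and 5 elsewhere. Ackr1, a chemokine-binding receptor of venules, stood at 37.8 CPM there and at 15.3 to 23.3 elsewhere, and the neutrophil gene S100a9 at 4.57 CPM and at 0.204 to 1.52. SNL 3 is the SNL library with the least Pmch, 0.797 CPM, where the highest sham library had 0.765. The summed level of the 36 genes in SNL 3, 1365 CPM, was the lowest of the SNL group.

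Ly6a stood at 66.8 CPM in CBD 1 and at 28.1 to 55.6 in the other 8, and Ly6c1 at 61.3 in CBD 1 and at 28.5 to 62.9 elsewhere, with the top value in SNL 2. CBD 1 also had the highest level of the haemoglobin gene Hbb-bs, 459 CPM against 60.6 to 418. Both belong to a family of near-identical genes and had counts that were not whole, and the relation between these values was not tested.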
